A study of Drosophila melanogaster with 42 samples.

Results

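The mef2 CD2+ GFP+ library is a single pool of 16163 sorted embryonic cells that carried the CD2 marker of the mef2 driver and also expressed GFP from a candidate regulatory region. It was chosen by its title, together with the 5 input libraries that the study assigned to it for comparison and for an estimate of variance, so 6 of the 42 samples of the series carry the main comparison. The embryos were Drosophila melanogaster, from males of a transgenic pool, in which candidate regions of 900 to 1101 bp drive GFP, crossed to females with a rat CD2 transgene under the mef2 driver. The twi groups used further below have the twi driver in place of the mef2 driver. All groups otherwise share this cross design, the collection of embryos for 2 to 2.5 h at 25 °C and the ageing for 9 to 10 h at 18 °C. The inputs were mef2 CD2- cells that were not selected on GFP, 32326 cells in replicates 1 and 2, 22028 in replicate 3 and 20048 in replicates 4 and 5, and they are called small inputs here. The comparison therefore joins the CD2 sort with the GFP sort, and the effects of these sorts cannot be told apart in it.

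Mef2 is a transcription factor that activates genes of muscle differentiation, and in the fly embryo it is found in somatic, visceral and cardiac muscle. A driver made from such a gene marks cells in which its regulatory sequence is active, which need not be the same cells as those with the protein. In an assay of this kind, each embryo carries a candidate region in all of its cells, and a region reaches the GFP+ sort only through cells in which it switches on the reporter. The share of a region among the sequenced inserts of GFP+ cells, set against its share in unselected cells, is then the readout. A region counted here is a piece of inserted DNA and not a transcript, so no muscle marker gene can be read from these tables, and the label of the cells as muscle cells could not be checked against markers.

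The library held 20350656 reads in candidate regions, and the small inputs held 16578005 to 18479725. Levels are given as CPM, the reads of a region per 1e6 reads in all regions of its library, on which 3 reads, the limit that a count of 0 allows, are 0.147 CPM in the GFP+ library and 0.162 to 0.181 in the inputs. Reads came from PCR without molecular identifiers, so intervals and limits cover counting error only. Nothing in the labels says that the inputs came from separate crosses, so the p-values measure no more than how these libraries vary, and that variation could be technical. The smallest two-sided p that an exact permutation test of 1 library against 5 allows is 0.333.

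Of the 491 candidate regions in the series, 249 had reads in at least 1 of the 6 libraries and 242 had none. The GFP+ library, from the fewest cells and with the most reads, had reads in 228 regions, above the 187 to 221 of the inputs. Regions with reads but under 100 CPM numbered 150 in it and 98 to 126 in the inputs. The reads of the GFP+ library were concentrated in few regions. It held 37 regions at 1000 CPM or more, while the inputs held 83, 79, 62, 72 and 62 such regions in replicates 1 to 5, so all inputs lay above it. These 37 regions took 98.5% of its reads.

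The same contrast appeared at the top of the list. The 4 most abundant regions of the GFP+ library took 46.0% of its reads, and the 4 most abundant of each input took 16.3%, 19.1%, 24.3%, 19.8% and 17.7%. The 10 most abundant took 67.2% in the GFP+ library and 35.9% to 43.3% in the inputs. The effective number of regions, which is the inverse of the sum of squared shares, was 15.1 in the GFP+ library and 34.1 to 48.8 in the inputs. GFP+ and input did not overlap in any of these measures.

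**Figure D1:**
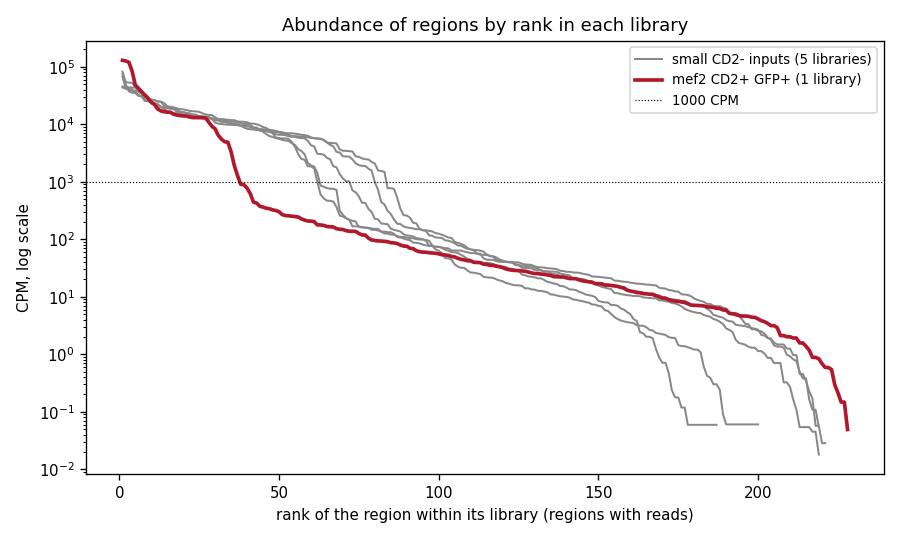
CPM of each region (vertical axis, log scale) against its rank within its library (horizontal axis), for the GFP+ library in red and the 5 small inputs in grey. The red curve starts above the grey ones, crosses them and reaches 1000 CPM after 37 regions, while the grey curves reach it after 62 to 83.

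The 4 leading regions were ChIPCRM2078, ChIPCRM2907, CG7759_33 and ChIPCRM3152. The region with the highest level was ChIPCRM2078 (dm3, chromosome 3R, 7177448 to 7178448), at 129499 CPM. Its inputs had 7262, 11680, 11725, 10124 and 1857 CPM in replicates 1 to 5. All 5 lay below the GFP+ library, which was 11.0 times the highest of them, and replicate 5 was the lowest.

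ChIPCRM2907 (3R, 17989695 to 17990673) followed with 125986 CPM, against 9816, 13907, 13286, 37329 and 43512 CPM in the inputs. Replicates 4 and 5, from the fewest input cells, were the highest inputs, and the GFP+ library stood 2.90 times above the higher of them.

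CG7759_33 (2R, 7287136 to 7288168) is the region named for CG7759, which the RefSeq gene table lists as Smyd4-3, a gene of the SET and MYND domain family. It had 120153 CPM in the GFP+ library, with an exact 95% binomial interval of 120012 to 120295. The inputs had 141, 184, 753, 3024 and 2424 CPM, or 1305 ± 1335 (SD, n = 5). The highest input was 39.7 times lower than the GFP+ library, and the inputs differed among themselves by more than an order of magnitude. The 3 mef2 CD2- inputs of 200000 cells had 9206, 6447 and 5043 CPM of it, above all 5 small inputs and below the GFP+ library.

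ChIPCRM3152 (3R, 21835656 to 21836646) had 84207 CPM, against 10676, 11679, 8733, 5838 and 16828 CPM in the inputs. The groups did not overlap, and the GFP+ library was 5.00 times the highest input. In sum these 4 regions took 2.79%, 3.74%, 3.45%, 5.63% and 6.46% of the reads of the inputs. They were chosen as the highest of the GFP+ library, so these sums beside its 46.0% are a description.

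**Figure D2:**
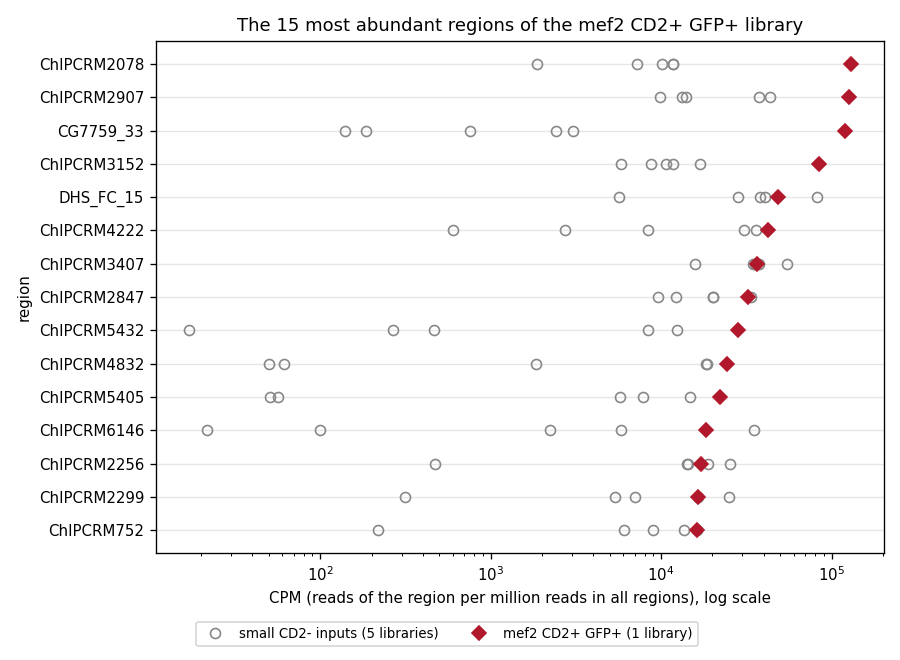
CPM (horizontal axis, log scale) of the 15 regions with the highest level in the GFP+ library, which is drawn as red diamonds, with the 5 small inputs as open grey circles. The 4 leading regions lie to the right of every circle, and from the fifth region on some diamonds lie among the circles and others, such as those of ChIPCRM5432 and ChIPCRM5405, lie beyond them.

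The test across all regions, edgeR's quasi-likelihood test with TMM scaling and Benjamini-Hochberg adjustment, took the GFP+ library to vary as the inputs do. Of 230 regions that passed the filter on low counts, 1 was higher in the GFP+ library (0.435% called) and 0 were lower (0% called), with 16 at an unadjusted p under 0.05. CG7759_33 was the region called, with a log2 change of 6.44 ± 1.34 (SE, adjusted p = 0.0488), and the median over all tested regions was -2.29. ChIPCRM2078 had 3.82 ± 0.94 and missed the threshold (adjusted p = 0.0718). ChIPCRM3152, at 2.98 ± 0.98, and ChIPCRM2907, at 2.38 ± 0.81, did not pass either (adjusted p = 0.277 for each). DESeq2 called 0 regions in each direction, with 38 at an unadjusted p under 0.05.

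The call of CG7759_33 was lost without either of 2 inputs. With any 1 input left out, its log2 change was 6.15 to 7.28. CG7759_33 had a log2 change of 10.27 against the 2 inputs of 32326 cells and of 5.77 against the 3 of 20048 to 22028 cells. In edgeR it had a log2 change of 6.15 without replicate 1 (adjusted p = 0.0612) and of 6.87 without replicate 5 (0.132), and an adjusted p of 0.0120 to 0.0164 without any other input. With all 8 mef2 CD2- inputs as control, ChIPCRM2078, ChIPCRM2907 and ChIPCRM3152 were called as well, and the log2 change of CG7759_33 was 5.46 (adjusted p = 0.000336).

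Below the leading 4, the GFP+ library lay among its inputs for some regions and above them for others. DHS_FC_15 (2R, 16486173 to 16487235) had 48327 CPM in the GFP+ library and 37973, 40669, 82361, 28296 and 5676 CPM in the inputs. It lay between the inputs, second of the 6 libraries. ChIPCRM3407 (3R, 26580521 to 26581535) had 36723 CPM, against 15710 to 54414 in the inputs, rank 3 of 6. ChIPCRM2847 had 32205 CPM and lay just under its highest input of 33782 CPM. ChIPCRM752, with 16220 CPM, lay just over its highest input of 16209 CPM.

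Among the 37 regions at 1000 CPM or more, the GFP+ library was the highest of the 6 libraries for 15, the second for 11, ranked 3 of 6 for 7, ranked 4 for 3 and the lowest for 1. Of the 37, 10 were at 1000 CPM or more in all 5 inputs, 25 in 1 to 4 of them and 2 in none. Between 48.6% and 75.7% of the GFP+ list was shared with a given input, which is 29.0% to 38.9% of that input's list. The input lists held 62 to 83 regions, so a list of 37 could not cover any of them in full, which limits the second share. Pairs of inputs shared 53.0% to 72.6% of either list. Over the 230 tested regions the Spearman correlation of CPM was 0.655 to 0.771 between the GFP+ library and an input and 0.567 to 0.758 between inputs, all computed on the same regions.

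The 2 regions at this level in the GFP+ library and in no small input were eg_36 and ChIPCRM1586. The region eg_36 (3L, 21795459 to 21796498) is named for eagle, which encodes a zinc finger protein of the nuclear receptor family known from neuroblasts. It had 13070 CPM in the GFP+ library and 50.8, 154, 22.02, 16.2 and 4.09 CPM in the small inputs. The GFP+ library was 84.9 times the highest of these inputs. The 200000-cell mef2 CD2- inputs nevertheless had 3019, 1501 and 4465 CPM of it, well above the small inputs.

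ChIPCRM1586 (3R, 851011 to 852016) had 13054 CPM, against 27.2, 18.9, 39.6, 2.35 and 161 CPM in the small inputs. The GFP+ library was 81.0 times the highest of them, replicate 5, and 330 times the next. Its 200000-cell inputs spread from 111 to 4366 CPM. The log2 changes against the small inputs were large but uncertain, 8.00 ± 3.36 for eg_36 (edgeR adjusted p = 0.536) and 8.18 ± 3.36 for ChIPCRM1586 (0.528), and neither passed. With the spread of all 4 mef2 groups, ChIPCRM1586 was called (adjusted p = 0.0270) and eg_36 was not (0.264). With all 8 mef2 CD2- inputs as control the log2 changes were 3.90 for eg_36 (0.693) and 4.36 for ChIPCRM1586 (0.651).

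For CBP5818 and slou_b_4, 1 input lay far above the other 4. CBP5818 (2R, 20951976 to 20953020) had 13064 CPM, against 2079, 16.2, 11.6, 4.46 and 44.1 CPM in the inputs. The GFP+ library was 6.28 times the highest input, replicate 1, and 296 times the next. The region slou_b_4 (3R, 17376951 to 17378044) had 13897 CPM, against 44.8, 68.0, 40.6, 6026 and 28.3 CPM, and its ratio was 2.31 to replicate 4 and 204 to the next input. It is named for slouch, a homeobox gene of muscle founder cell identity. Without such an input, ChIPCRM4351 (3L, 12056834 to 12057782) had a lower level, 776 CPM, against 25.2, 8.95, 14.4, 0 and 13.0 CPM, and 1156 to 3376 CPM in the 200000-cell inputs. None of these 3 passed the test (edgeR adjusted p = 0.861, 0.861 and 0.633).

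ChIPCRM5432, ChIPCRM5405, ChIPCRM4832, ChIPCRM6885 and ChIPCRM5439 also lay above every input, at 28113, 22089, 24193, 14464 and 13966 CPM. Their inputs were split between high and low values. ChIPCRM4832 (3L, 18313580 to 18314509), for example, had 18456, 49.7, 61.0, 18452 and 1852 CPM, so that replicates 1 and 4 were close to the GFP+ library and replicates 2 and 3 were far below it. ChIPCRM2506 (3R, 12595974 to 12597040), at 163 CPM against at most 18.6 CPM, completed the list of regions named for lying above all inputs.

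Over all 230 tested regions, the GFP+ library lay above every small input for 30 (13%) and below every one for 28 (12.2%). Single inputs also held many extremes. Counting every region with reads, the GFP+ library was the highest of the 6 libraries for 33 and each input for 35 to 50. At 1000 CPM or more, the GFP+ library exceeded the next library by 5-fold or more for 6 regions and an input did so for 5 to 12.

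In 11 regions every small input had at least 1000 CPM and the GFP+ library had less than all of them. An input was the lowest in the same way, with the other 5 libraries at 1000 CPM or more, for 2 to 5 regions. The deficit was 5-fold or more for 10 regions in the GFP+ library and for 0 to 2 in an input. These counts have unlike bases. The GFP+ library could count among the 20 regions at 1000 CPM or more in all 5 inputs. An input could count among the 10 at that level in all 6 libraries. Some of the 6 at that level in the GFP+ library and 4 inputs add to these. Together the 11 regions took 0.923% of the GFP+ reads and 24.3%, 29.1%, 24.2%, 20.7% and 23.7% of the reads of the inputs. They were chosen for lying below every input, so these sums are a description.

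ChIPCRM1831 (3R, 4512729 to 4513672) had 903 CPM in the GFP+ library and 37050, 42616, 53014, 26461 and 43949 CPM in the inputs. These inputs lay in a narrow range, and the lowest of them was 29.3 times the GFP+ level. Its log2 change was -5.51 ± 1.31 and did not pass (edgeR adjusted p = 0.0718). ChIPCRM6845 (X, 2190201 to 2191287) had 426 CPM, against 43679, 30343, 16077, 49687 and 28898 CPM, a log2 change of -6.41 ± 1.63 (adjusted p = 0.0724). Both lay below all inputs, which were at least 29.3 and 37.7 times higher.

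CBP1410 (X, 19591043 to 19592056) was the most abundant of the 11 in the GFP+ library, at 5499 CPM, and in the inputs it had 41466, 66963, 52740, 26050 and 43437 CPM. It lay 4.74 times below the lowest input, with a log2 change of -3.09 ± 1.03 (edgeR adjusted p = 0.277). The region was the single one of the 37 high regions for which the GFP+ library was the lowest of 6.

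Of the 11, 4 carry the DHS_FC prefix. Over all 21 tested DHS_FC regions, 5 lay below every input, beside 28 of all 230. DHS_FC_37 (3L, 4628270 to 4629264) had 256 CPM, and its inputs had 20561, 25370, 26270, 13825 and 11788 CPM. The lowest input was 46.1 times the GFP+ level, the largest such ratio among the 11. DHS_FC_32 had 375 CPM against 12048 to 39703, DHS_FC_13 had 207 CPM against 5919 to 25875, and DHS_FC_9 had 167 CPM against 2718 to 18867. Their log2 changes ran from -6.57 to -6.00 and none passed the test (edgeR adjusted p = 0.277 to 0.776).

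CG15319_down_9 (X, 9561013 to 9562041) is a region named for CG15319, or nejire, the fly homologue of the histone acetyltransferases CBP and p300. It had 153 CPM, against 15215, 9781, 8597, 4115 and 14798 CPM. ChIPCRM1663, ChIPCRM770 and ChIPCRM1960 made up the rest, at 178, 622 and 443 CPM, and each of their lowest inputs had 3011 CPM or more. With the mean count filter or start and end reads in place of the main setting, ChIPCRM1831 and ChIPCRM6845 passed as lower (edgeR adjusted p = 0.0201 to 0.0418), and CG15319_down_9 did so with start and end reads. With all 8 mef2 CD2- inputs as control, 6 regions were called lower by edgeR, which were ChIPCRM1831 and ChIPCRM6845 (adjusted p = 0.00197 for each), DHS_FC_37 (0.0123), CBP1410 (0.0184), DHS_FC_13 (0.0297) and DHS_FC_32 (0.0427).

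**Figure D3:**
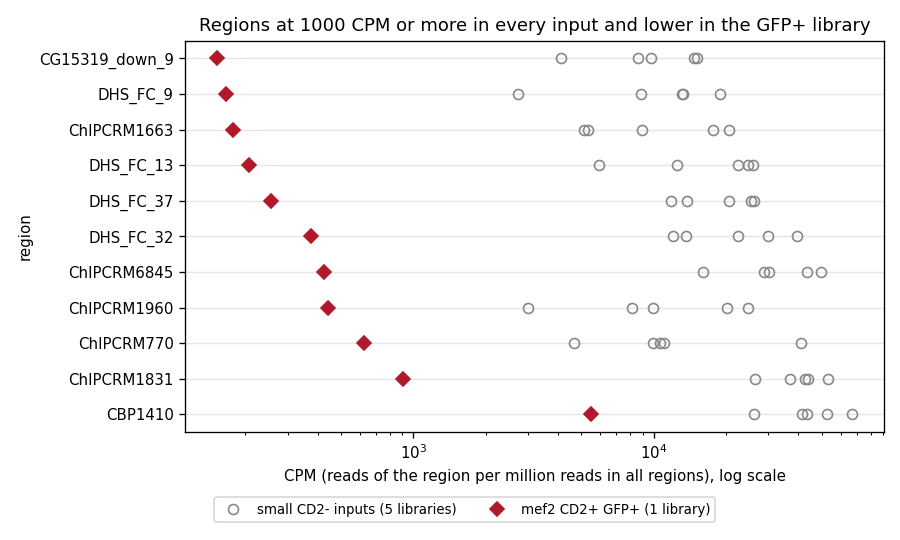
CPM (horizontal axis, log scale) of the 11 regions that had 1000 CPM or more in every small input (open grey circles, 5 libraries) and less in the GFP+ library (red diamonds). All diamonds lie to the left of all circles of their row, and 10 of the 11 lie under 1000 CPM.

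The study also sorted mef2 CD2- GFP+ cells, from the same driver but without CD2, and twi CD2+ GFP+ cells, from a driver of the early mesoderm gene twist, each with 3 libraries and 3 inputs. The mef2 CD2- GFP+ libraries came from 94473 to 138635 cells with inputs of 200000, and the twi CD2+ GFP+ libraries from 100783 to 111875 cells with inputs of 100000 to 200000, so the mef2 CD2+ GFP+ library had the fewest cells of all these, and the part of cell number in any difference was not tested. The 4 leading regions of the mef2 CD2+ GFP+ library took 49.1%, 46.8% and 46.5% of the reads of the mef2 CD2- GFP+ libraries, in which they were also the top 4, and 55.4%, 49.9% and 43.1% in the twi CD2+ GFP+ libraries.

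The level of CG7759_33 was 128357, 115544 and 120407 CPM in mef2 CD2- GFP+ cells, a range that holds the 120153 CPM of the CD2+ library. In twi CD2+ GFP+ cells it was 192444, 165915 and 120118 CPM. ChIPCRM2907 had 92614 to 107506 CPM in mef2 CD2- GFP+ cells, below the CD2+ library, and 105855 to 137471 CPM in twi CD2+ GFP+ cells. ChIPCRM3152 had 101631 to 125196 CPM and 175153 to 238686 CPM in these groups, both above the 84207 CPM of the mef2 CD2+ library.

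ChIPCRM2078 had unequal levels between the drivers, with 139896, 139343 and 135797 CPM in mef2 CD2- GFP+ cells, near the mef2 CD2+ library, and 12.3, 79.6 and 29710 CPM in twi CD2+ GFP+ cells. Its level in the unselected twi CD2+ inputs was low as well, at 16.3, 3.10 and 470 CPM. It was scarce there without any selection on GFP, and driver, fly pool and batch cannot be told apart.

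**Figure D4:**
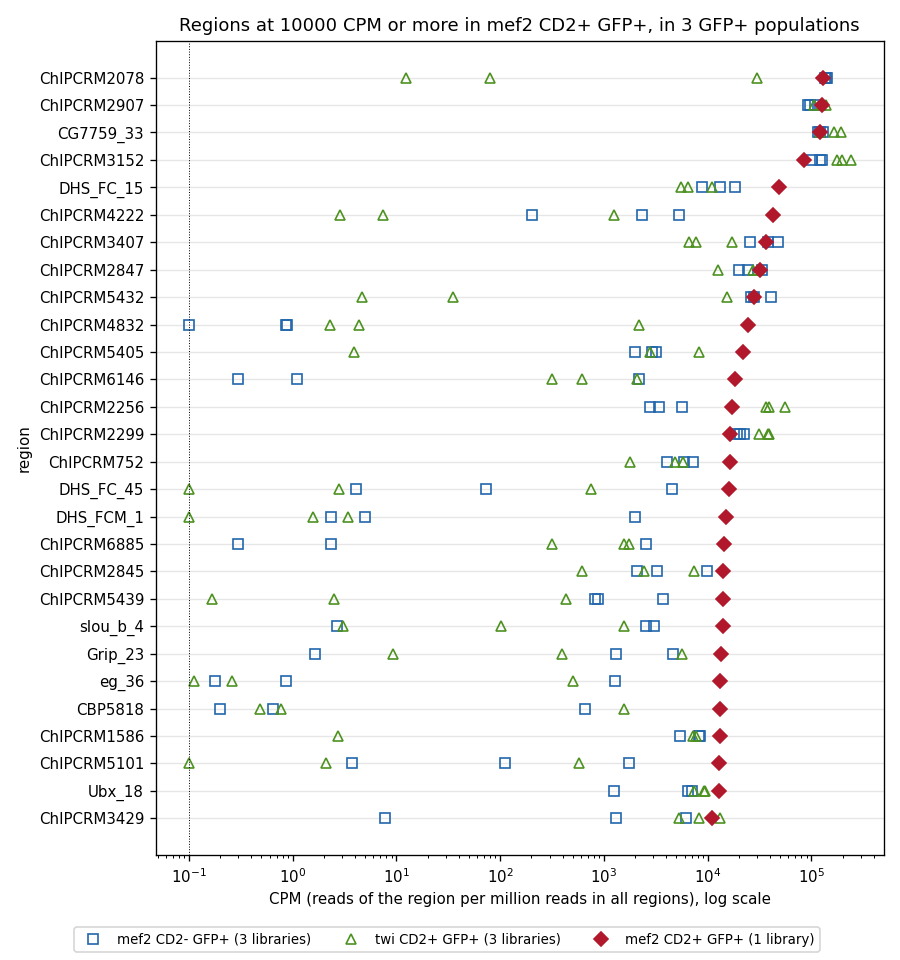
CPM (horizontal axis, log scale) of the 28 regions at 10000 CPM or more in the mef2 CD2+ GFP+ library (red diamonds), with the 3 mef2 CD2- GFP+ libraries (blue squares) and the 3 twi CD2+ GFP+ libraries (green triangles). Values under 0.1 CPM, zeros included, are drawn on the dotted line. The groups lie close together for ChIPCRM2907 and CG7759_33 and spread over several powers of 10 for many regions lower in the list.

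Of the 37 high regions, 26 were above every mef2 CD2- GFP+ library, 7 lay within their range and 4 were below it. Against the twi CD2+ GFP+ libraries the counts were 27, 4 and 6. The 37 were chosen for their level in the mef2 CD2+ library, so these counts are a description. Over all 230 tested regions the counts were 108, 84 and 38 against mef2 CD2- and 82, 90 and 58 against twi CD2+ GFP+ cells. The replicated GFP+ libraries held more regions at 1000 CPM or more, 67 to 79 in mef2 CD2- and 68 to 84 in twi CD2+ cells. ChIPCRM4222 (3L, 10652471 to 10653420) had 42239 CPM in the mef2 CD2+ library, and 2322, 5305 and 205 CPM in mef2 CD2- GFP+ cells. It had 8378, 2741, 36192, 30550 and 603 CPM in the small inputs, so that 2 of them were near the GFP+ level. ChIPCRM4832 had 0.861, 0.02497 and 0.887 CPM in mef2 CD2- GFP+ cells, although their inputs had 5184, 3733 and 3445 CPM.

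Whether the ratio of GFP+ cells to input differed between mef2 CD2+ and mef2 CD2- cells was tested as a contrast over 4 groups. Of 231 regions, 0 had a higher ratio in CD2+ cells (0% called) and 1 a lower one (0.433% called) by edgeR, with 36 at an unadjusted p under 0.05. DESeq2 called 14 and 9. The region lower by edgeR was ChIPCRM1831, with a log2 difference of -6.65 ± 1.27 (adjusted p = 0.0171). Its mef2 CD2- GFP+ libraries had 12655, 19289 and 33624 CPM, against 36331, 28284 and 37442 CPM in their inputs, so those groups overlapped, while the CD2+ library at 903 CPM lay below all of these values. The difference rests on 1 library. It had an adjusted p of 0.0576 with total-read scaling and of 0.0653 to 0.119 without any of several single libraries, which are mef2 CD2- input replicates 1 to 3, small input replicate 3 and mef2 CD2- GFP+ replicates 2 and 3.

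The leading regions did not pass this test of the difference. ChIPCRM2078 had -2.26 ± 0.98 (edgeR adjusted p = 0.298), ChIPCRM2907 had -1.70 ± 0.94 (0.402), ChIPCRM3152 had -1.90 ± 0.73 (0.262) and CG7759_33 had 0.44 ± 1.38 (0.905). The median region was at -1.40 on this scale and at 0.40 with total-read scaling, under which ChIPCRM2907 had 0.16. ChIPCRM4832 had 12.54 ± 3.60, which edgeR did not call (adjusted p = 0.172) and DESeq2 called higher.

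The same contrast between mef2 CD2+ and twi CD2+ cells called 0 of 230 regions higher and 0 lower by edgeR (0% called in each direction), with 22 at an unadjusted p under 0.05. DESeq2 called 6 and 10. The smallest adjusted p was 0.385, that of ChIPCRM1831 at -5.52 ± 1.62, and the median region was at -2.10. CG7759_33 differed by 0.94 ± 1.30 (edgeR adjusted p = 0.766) and ChIPCRM2078 by -3.09 ± 3.30 (0.748), which became 4.38 without twi CD2+ GFP+ replicate 3. Without twi CD2+ GFP+ replicate 1, 1 region was called higher, eg_36.

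The 11 low regions took smaller shares of the reads in the other GFP+ groups as well, 7.57%, 6.34% and 8.90% in mef2 CD2- GFP+ cells against 26.3%, 26.2% and 25.1% in their inputs. In twi CD2+ GFP+ cells they took 3.21%, 3.59% and 4.88%, against 14.96%, 14.5% and 11.5%. The mef2 CD2+ library, at 0.923%, was below all 6 of these GFP+ libraries. It was below every mef2 CD2- GFP+ library for all 11 regions and below every twi CD2+ GFP+ library for 7. Over all 230 tested regions these counts were 38 and 58. The 11 were chosen for a low level in the mef2 CD2+ library itself, so its place below the other GFP+ libraries is a description.

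By chromosome, several shares of the GFP+ library lay outside the range of the inputs. Regions on the X took 4.48% of the reads of the mef2 CD2+ GFP+ library and 18.3%, 18.6%, 12.1%, 14.3% and 17.7% of those of the small inputs, without overlap. The share was 3.42% to 4.07% in mef2 CD2- GFP+ cells against 16.6% to 17.2% in their inputs, and 2.63% to 6.09% in twi CD2+ GFP+ cells against 13.6% to 16.9%. All 3 GFP+ groups were thus below their inputs on the X. With the 4 leading regions left out of all libraries, none of which is on the X, the X share was 8.30% in the mef2 CD2+ GFP+ library and 12.6% to 19.3% in the small inputs.

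**Figure D5:**
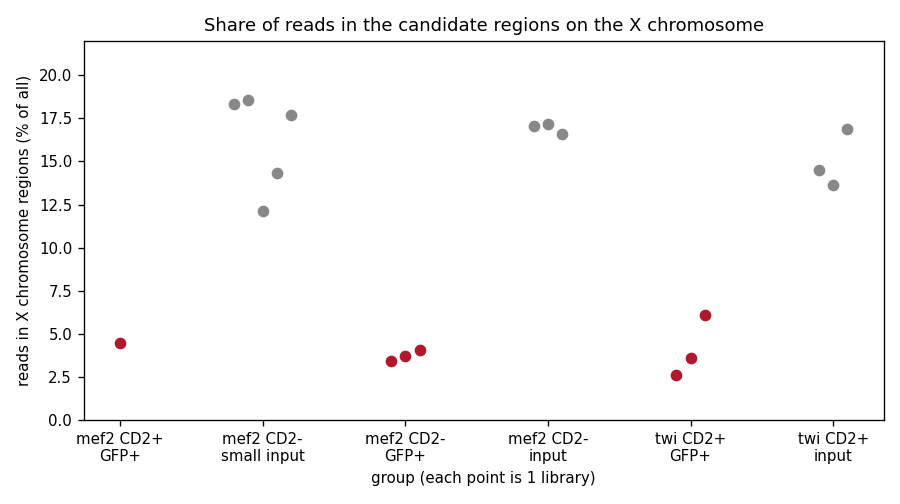
Percent of reads in regions on the X chromosome (vertical axis, from 0) in each library of the 6 groups (horizontal axis), GFP+ groups in red and inputs in grey. The red points lie between 2.63% and 6.09% and the grey points between 12.1% and 18.6%.

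Of the 83 regions on the X, 29 were tested. The GFP+ library lay above every small input for 3 of the 29 and below every one for 6, beside 30 and 28 of all 230, and 4 of the 83 were at 1000 CPM or more in it. Those below every input included ChIPCRM6845, CBP1410, DHS_FC_32 and CG15319_down_9. Grip_23, named for Grip, which encodes a PDZ domain protein, was an X region with a high GFP+ level, 13365 CPM, within the 151 to 30273 CPM of its inputs. On 3R the GFP+ library had 53.3% of its reads and the inputs 37.0% to 43.6%. Without the 4 leading regions the 3R share was 35.7%, inside the 33.7% to 39.98% of the inputs. Regions on 2R took 19.9%, above the 7.46% to 15.7% of the inputs, and 14.7% without the leading regions, inside their 7.72% to 16.2%. Regions on 3L took 9.59%, below the 12.9% to 27.3% of the inputs, and 17.8% without the leading regions, inside their 13.4% to 28.9%. The 2L share of 12.7% was within the 10.5% to 18.2% of the inputs, and without the leading regions it was 23.6%, above their 11.2% to 18.9%. The X share was thus the one that lay outside the inputs on the same side with and without the leading regions. Of the 11 regions chosen for lying below every input, 4 are on the X and held part of the input share. CBP1410 alone had 26050 to 66963 CPM in the inputs. The X share without these low regions was not computed, so a deficit across the X in general was not tested.

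By the prefix of their names, ChIPCRM regions took 70.8% of the GFP+ reads and 46.9% to 70.3% of the input reads, and regions named for a gene took 18.5% and 13.1% to 15.7%. Without the 4 leading regions these shares were 68.2% for ChIPCRM, within the 45.1% to 68.8% of the inputs, and 11.99% for gene-named regions, below the 13.8% to 16.1% of the inputs. CBP regions took 1.92% of the GFP+ reads, below the 6.69% to 11.7% of the inputs. DHS_FC regions took 7.27%, below the 8.97% to 26.1% of the inputs. Without the leading regions the DHS_FC share was 13.5%, inside the 9.51% to 27.0% of the inputs, and the CBP share was 3.55%, below their 6.89% to 12.1%. The median log2 change was -0.457 over 19 tested CBP regions and -0.379 over 21 tested DHS_FC regions, against -2.29 over all tested regions. Of the 19, 1 lay above every input and 3 below. The share sums over regions and is weighted to the abundant ones, while the median gives each tested region the same weight. CBP1410 alone had 26050 to 66963 CPM in the inputs and 5499 CPM in the GFP+ library. The CBP share without CBP1410 was not computed, so its part in the low share was not tested.

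Other regions were abundant in the inputs on average and uneven among them. ChIPCRM4504 (3L, 14374580 to 14375520) had 347 CPM in the GFP+ library and 33044, 12251, 16210, 75416 and 204 CPM in the inputs, so replicate 5 was lower than the GFP+ library. CG10275_32, named for kon, which encodes a transmembrane protein of muscle guidance, had 93.8 CPM, against 9928, 6831, 44103, 4.10 and 23570 CPM. ChIPCRM2062 had 8337 CPM and ChIPCRM2845 had 14144 CPM, each within the range of its inputs. None of these 4 passed the test against the small inputs (edgeR adjusted p = 0.528, 0.768, 0.927 and 0.923).

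Over the 230 tested regions the log2 change had a Spearman correlation of 0.037 with GC content and of -0.126 with length. These are descriptions across regions of the same 6 libraries.

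Among 55 regions named for 9 genes of a list for somatic muscle, founder cells and fusion, 27 had no read in the 6 libraries and 22 were tested. Of the 22, CG7759_33 was called higher, the only call among all 230 tested regions, and 0 were called lower. The list, which includes CG7759 and nejire, was chosen with earlier results of these data known. Its call and its share of reads are therefore a description and no support for a muscle theme. By CPM, the GFP+ library lay above every input for 4 of the 22 and below every one for 4, beside 30 and 28 of all 230. Their median log2 change was -4.14, beside -2.29 over all tested regions. Of the 55 regions, 20 are named for org-1, 17 for nejire and 11 for slouch. Of the 22 tested, 7, 7 and 5 are named for these genes, so the median describes mainly them. The list took 14.4% of the GFP+ reads, most of it CG7759_33, and 3.78% to 9.48% of the input reads. Without CG7759_33 it took 2.43% of the GFP+ reads, below the 3.76% to 9.46% of the inputs.

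Only CG7759_33, slou_b_4 and CG15319_down_3 of this list reached 1000 CPM in the GFP+ library. CG15319_down_3 (X, 9557691 to 9558747), the only nejire region at this level, had 9214 CPM, against 114, 10982, 3706, 8.57 and 146 CPM in the inputs. It lay second of 6. Of 17 regions named for nejire, 7 had reads in the GFP+ library. CG15319_down_3 lay among its inputs and CG15319_down_9 below all of its own. Over the 7 tested nejire regions, the GFP+ library lay above every input for 1 and below every one for 2. The nejire regions together took 0.970% of the GFP+ reads and 1.36% to 4.60% of the input reads.

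The slouch regions showed the same unevenness. Of 11, 6 had reads in the GFP+ library and slou_b_4 alone held 13897 CPM. Its neighbour slou_Up_30, 2695 bp away, had 27.0 CPM, against 37.8 to 12009 in the inputs. The region slou_b_6, which overlaps slou_b_4 by 181 bp, had 0.147 CPM, against 0 to 0.0603 CPM in the inputs. As slou_b_6 was nearly absent without selection on GFP, its level says nothing on activity. Reads in the overlap may be shared between such regions in the deposited counts, which was not tested.

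Of 20 regions named for org-1, a T-box gene of muscle founder identity, 8 had reads in the GFP+ library and 0 reached 1000 CPM. Together they took 0.0290% of its reads and 0.0776% to 1.78% of the input reads, so the GFP+ library was below all inputs. The most abundant, CG11202_down_1, had 105 CPM, against 64.5 to 14207 CPM in the inputs. For nautilus, the fly homologue of the myogenic factor MyoD, nau_a_4 (3R, 19540662 to 19541717) had 252 CPM, against 529, 23646, 12428, 5746 and 78.2 CPM, and lay between the inputs. Mef2_29, the region named for Mef2 itself, had no read in these 6 libraries.

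Of 6 regions in a list for cardiac mesoderm and Hox patterning, 3 were tested and 0 were called, beside 1 of all 230 (0.435%). Ubx_18 (3R, 12506697 to 12507685), named for the Hox gene Ultrabithorax, had 12883 CPM, against 38485, 18223, 11956, 31125 and 12039 CPM, rank 4 of 6. The lists for visceral mesoderm and for the nervous system matched no region name, and that for the epidermis and signalling matched 1 region, which had no read.

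Regions within 5000 bp of the named high ones did not reach 1000 CPM in the GFP+ library. ChIPCRM2081, 335 bp from ChIPCRM2078, had no read in the 6 libraries. CBP5467, 757 bp from DHS_FC_15, had 203 CPM in the GFP+ library and 137 to 26382 CPM in the inputs. ChIPCRM4833 overlaps ChIPCRM4832 by 677 bp and had 11.1 CPM where the latter had 24193. In the inputs ChIPCRM4833 had 0 to 94.1 CPM and ChIPCRM4832 had 49.7 to 18456. The level of ChIPCRM4833 thus lay within its own inputs, in which it was scarce. ChIPCRM5432 and ChIPCRM5439 on 2L were both above every input, with ChIPCRM5436, which had no read, between them.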

How the data were processed

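Inserts amplified by nested PCR from genomic DNA of sorted cells were sequenced, and extracts were pooled by sample type before PCR, per the labels' protocols. CASAVA 1.8 and the build dm3 are named in the submitters' processing notes. The authors deposited an expected count per region, in which some regions hold fractions, with whole counts of reads at the start and end of each region, and GC content as a fraction, per the file headers. The steps between mapping and these counts are not known here.

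Counts were rounded. Where a table listed a region on 2 identical lines (3 regions in 11 tables), the lines were merged as the sum of both counts minus the shared start and end reads, since the ratio of total to start and end reads was then 4.58, against 4.11 in tables with 1 line. Regions kept by filterByExpr were tested with the quasi-likelihood test of edgeR 4.0.16 after TMM scaling, in R 4.3.3 with limma 3.58.1, and p-values were adjusted by Benjamini-Hochberg, with a threshold of 0.05. The absolute log2 change was divided by the square root of F to give its standard error. The spread of the GFP+ library was taken from the other libraries of the fit. DESeq2 1.42.0, total-read scaling, other filters, start and end reads, other controls and leaving out libraries were tried, and the code was tested on simulated data.

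Named regions were the calls, the 15 highest in the GFP+ library, the 15 with the largest ratio to the highest input at 100 CPM or more, the 10 with the largest deficit to inputs of 1000 CPM or more, listed genes at 1000 CPM or more, neighbours within 5000 bp, and the 5 most variable and 15 highest in the inputs. Other regions were picked as examples after their values were seen. Members and lists were chosen with earlier results of these data known. Of 107 gene-named regions, 105 matched 1 symbol (47 genes) in a RefSeq table of a later assembly, used for names only. The place of regions within genes was not analysed here.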

Additional observations from a re-analysis of the deposited data

Results flagged for a closer look

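In 10 of 38 regions checked over the 5 small inputs, 1 input stood apart from the other 4 by Dixon's test on CPM at the 95% level. Chance alone gives this in about 1 of 20 groups only where values are normally distributed. The CPM of many regions ranged over orders of magnitude, so the 10 cannot be set against that rate. Of the regions checked, 5 were included because their inputs varied most. In each of the 10 the outlying library was the highest. In replicate 1 these were CBP5818 at 2079 CPM, DHS_FCM_5 at 9697 CPM and Sur_39 at 5905 CPM. In replicate 2 it was ChIPCRM770 at 40920 CPM. In replicate 4 they were CG15319_b_c_1 at 8746 CPM, ChIPCRM6146 at 34990 CPM and slou_b_4 at 6026 CPM. In replicate 5 they were CG15319_b_c_3 at 19010 CPM, ChIPCRM1586 at 161.1 CPM and ChIPCRM7222 at 5712 CPM. Sur_39 had 0 CPM in the other 4 inputs and 1.18 CPM in the GFP+ library. The share of reads in the 10 most abundant regions stood apart in replicate 3, at 43.3%.

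ChIPCRM1831 had a log2 difference of -6.65 between the enrichment in mef2 CD2+ and mef2 CD2- cells by edgeR's test of the difference (adjusted p = 0.0171), with 903 CPM in the single CD2+ GFP+ library. The cause was not tested.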

How the results depend on the processing

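Against the small inputs, edgeR called 1 region higher and 0 lower. The counts were 2 and 0 with total-read scaling, 0 and 0 by DESeq2 (177 of 230 adjusted p not given), 2 and 2 for regions averaging at least 100 counts, 2 and 3 with start and end reads, 5 and 1 with the spread of all 4 mef2 groups, 4 and 6 with all 8 mef2 CD2- inputs and 4 and 0 with the 2 inputs of 32326 cells. Leaving out 1 input gave 0 to 2 higher and 0 to 1 lower. The mef2 CD2+ minus CD2- difference gave 0 higher and 1 lower, 14 and 9 by DESeq2, 0 lower with total-read scaling or no filter, and 0 to 2 lower with a library left out. The mef2 minus twi difference gave 0 and 0, 6 and 10 by DESeq2, and 0 to 1 higher with a library left out. The GFP+ library lay above every input for 36 to 41 regions and below for 30 to 48 with 1 input left out, the 48 without replicate 5. Regions of at least 1000 CPM above every input numbered 15 to 19 and those below 11 to 15 in alternatives added after seeing the data, as was the count from start and end reads, 31 above and 26 below. The causes were not tested. With start and end reads, 22 of 23 ratios to the highest input kept their side of 1. No paired analysis was possible because the GFP+ library carries no replicate number. A single library, the estimated variation of 179% between inputs and the unequal cell numbers limit all comparisons.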
